A study of Mus musculus with 13 samples.

Results

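A list of 33 mouse genes for glycolysis, its branches and glycogen synthesis and breakdown was examined in quadriceps muscle. Each gene was represented by its brightest probe set among those annotated with exactly 1 gene symbol, a probe set being a group of short oligonucleotides on the array that reports 1 transcript region. Such a probe set existed for 29 of the 33 genes. Gpi1, Eno1 and Pfkfb1 had none that was named here, and Pgam1 shared its only one with a pseudogene. Aldoc, an aldolase of brain, had a mean log2 signal of 3.51 and lay below the filter at 4.904. The other 28 genes were tested among 10411 genes in all. The symbols Pgm1 and Pgm2 have been exchanged between annotations, so they were matched by gene ID: Pgm1 here is gene 72157 on chromosome 4, and Pgm2 is gene 66681 on chromosome 5.

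Glycolysis splits glucose into pyruvate and lactate with a small yield of ATP, and glycogen is the branched glucose store that feeds it inside the muscle fibre. Fast-contracting muscle such as quadriceps holds these enzymes at high levels, often as isoforms encoded by genes other than those used in liver, brain or blood. Glycogen synthase builds the store and glycogen phosphorylase breaks it down, and targeting subunits of protein phosphatase 1 bring that phosphatase to glycogen, where it activates the synthase and switches off the phosphorylase.

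The study asked how loss and gain of DOR, an earlier name of Trp53inp2, alter gene expression in skeletal muscle. DOR is a regulator of autophagy that also acts as a nuclear receptor coactivator. The groups were SKM-KO (n = 3), read as ablation of DOR, C (n = 3), SKM-Tg (n = 4), read as gain of function, and Wt (n = 3). All 13 animals were C57Bl/6 males of 4 months on standard chow, and each gave 1 Affymetrix array. The labels do not state which control goes with which line, and the pairs SKM-KO with C and SKM-Tg with Wt follow the naming. The numbers in the sample titles interleave C with SKM-KO, and in a higher range Wt with SKM-Tg. In Wt minus C, line and any difference between these ranges cannot be told apart. The promoters that drive the deletion and the transgene, the number of founder lines and the littermate status are not given in the sources used here. The labels do not say whether arrays of different groups were processed together. Each p-value sets a mean difference against the spread between arrays, pooled over the groups. It cannot tell genotype from handling shared by a group.

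Values are log2 signals, and array medians lay between 4.85 and 4.94. Trp53inp2 had log2 signals of 8.58, 8.79 and 8.99 in SKM-KO, against 11.06, 11.19 and 11.15 in C, and fell by 2.35 on the log2 scale (limma adjusted p 3.76e-06). It had 11.11, 11.03, 11.28 and 11.24 in SKM-Tg, against 11.20, 11.46 and 11.00 in Wt, and these groups overlapped. The mean was 11.17 in SKM-Tg and 11.22 in Wt, so no gain of its transcript was measured in SKM-Tg, and whether this probe set reads the transgene was not tested. Wt 2 stood apart from the other arrays, with a median correlation of 0.917 over the genes tested, where the other 12 arrays had 0.968 to 0.990. It held the highest log2 signal of 14 of the 28 metabolic genes and the lowest of 4. All 9 markers of fast fibres and all 9 of slow and oxidative fibres were above the filter. In whole muscle, fewer cells of a type and less RNA per cell cannot be told apart.

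Of the 28 genes tested, Fbp2 and Ppp1r3c had the largest differences in SKM-KO minus C, and Ppp1r3a the largest in SKM-Tg minus Wt. The 250 bases before the start of these 3 genes are shown as the regions that set where their transcripts begin. Capitals mark every match, on either strand, to ACGTG (the core bound by hypoxia-inducible factors), TATAAA (a core promoter element) or the MEF2 motif of muscle genes, searched as CTA and TAG with any 4 bases between them. All are on the minus strand in GRCm38.p6, read 5′ to 3′ along the gene, and come from RefSeq.
Fbp2, chr13:62858401-62858650: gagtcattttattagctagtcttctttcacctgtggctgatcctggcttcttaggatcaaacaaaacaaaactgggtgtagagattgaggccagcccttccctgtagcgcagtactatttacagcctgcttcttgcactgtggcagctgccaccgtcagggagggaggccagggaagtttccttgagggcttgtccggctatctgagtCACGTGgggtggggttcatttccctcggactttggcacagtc
Ppp1r3a, chr6:14755275-14755524: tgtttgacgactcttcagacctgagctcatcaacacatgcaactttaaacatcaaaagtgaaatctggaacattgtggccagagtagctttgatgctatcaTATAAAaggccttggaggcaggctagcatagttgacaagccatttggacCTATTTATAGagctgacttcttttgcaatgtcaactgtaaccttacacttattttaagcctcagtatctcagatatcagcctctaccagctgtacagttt
Ppp1r3c, chr19:36736605-36736854: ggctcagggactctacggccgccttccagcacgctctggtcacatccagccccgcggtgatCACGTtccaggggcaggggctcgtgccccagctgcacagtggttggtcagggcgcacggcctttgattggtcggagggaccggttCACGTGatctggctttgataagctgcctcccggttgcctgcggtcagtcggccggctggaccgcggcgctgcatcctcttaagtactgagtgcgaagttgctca
Fbp2 and Ppp1r3c hold CACGTG, which reads as ACGTG on both strands, and Ppp1r3c has a further match upstream of it. Ppp1r3a holds a TATAAA match and a MEF2 motif whose letters overlap a reverse TATAAA match. A gene was counted if any of its windows of 300 bases around a start held a match. The 32 listed genes with a RefSeq promoter had 48 windows, more per gene than all 27025 genes, with 32851 windows. ACGTG was present in 17 of the 32 listed genes (53.1%), against 21.8% of the 27025 genes and 19.6% of all windows. CACGTG was present in 5 (15.6%, against 8.09%), AGGTCA, a nuclear receptor element, in 8 (25.0%, against 18.1%), TATAAA in 3 (9.38%, against 15.7%) and the MEF2 motif in 3 (9.38%, against 4.23%). The members' windows also had a higher median GC content, 58.8%, than all windows, 52.7%. A match is a description of these letters and not evidence of binding.

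None of the 28 genes passed the threshold in any comparison. In SKM-KO minus C, limma called 0 of 28 at an adjusted p under 0.05, and the share over all genes tested was 0.00961%, which is Trp53inp2 alone. It also called 0 of 28 in SKM-Tg minus Wt, where the share over all genes was 0%. For the difference of effects, (SKM-Tg minus Wt) minus (SKM-KO minus C), the count was 0 of 28 beside a share of 0.0192%. At an unadjusted p under 0.05, 1 gene was lower in SKM-KO (Fbp2, background 0.288%) and 1 was higher in SKM-Tg (Ppp1r3a, background 1.50%), and 0 were lower there (background 5.39%). The difference of effects had 0 such genes, where the share over all genes was 3.1%.

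The medians were close to those of all genes. The 28 genes in SKM-KO minus C had a median log2 change of -0.011, with 18 below 0, where all genes had a median of 0.0077 and 46% below 0. For SKM-Tg minus Wt the median was -0.075 with 22 below 0, where all genes had -0.051 and 62.2% below 0. Without Wt 2 this median was -0.027 with 17 below 0, and without Wt 3 it was -0.129. An absolute log2 change over 0.2 was found for 4 of the 28 in SKM-KO minus C (5.56% of all genes) and for 5 in SKM-Tg minus Wt (30.2% of all genes). The difference of effects was below 0 for 20 of the 28 (61.7% of all genes) and over 0.2 in absolute size for 8 (36.4%). The 95% interval of the change lay within 1.5-fold either way for 21 of 28 genes in SKM-KO minus C and likewise for 21 of 28 in SKM-Tg minus Wt. All genes had 83.7% and 71.7% within that limit.

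Upper glycolysis, from glucose phosphorylation to triose phosphates, had 7 genes tested. Their median log2 change was 0.03 in SKM-KO minus C, and in SKM-Tg minus Wt it was -0.08 with all 7 below 0. Hk2, the hexokinase of insulin-sensitive tissue, had log2 signals of 10.31, 10.42 and 10.40 in SKM-KO, against 10.17, 10.46 and 10.29 in C. It had 10.25, 10.18, 10.07 and 10.11 in SKM-Tg, against 10.44, 10.39 and 10.21 in Wt. The 4 SKM-Tg values were low and overlapped Wt only through Wt 3. The difference was -0.19 in SKM-Tg minus Wt (SE 0.10, limma adjusted p 0.702) and 0.07 in SKM-KO minus C (SE 0.10, adjusted p 1).

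Hk1, the hexokinase found in most tissues, had 7.03, 7.70 and 7.77 in SKM-KO, against 7.21, 7.61 and 7.57 in C. It had 6.81, 6.74, 7.80 and 7.68 in SKM-Tg, against 7.52, 8.03 and 7.36 in Wt. SKM-Tg 1 and SKM-Tg 2 were the lowest of all 13 arrays, while SKM-Tg 3 and SKM-Tg 4 lay inside the Wt range, so the groups overlapped. The difference was -0.38 in SKM-Tg minus Wt (SE 0.28, limma adjusted p 0.703). The same 2 SKM-Tg arrays were low in the mean of 4 endothelial markers, at 8.52 and 8.43, against 9.06 and 8.97 in the other 2. They were also low in the mean of 5 macrophage markers, at 5.73 and 5.80 against 6.35 and 6.28, and of 4 fibroblast markers, at 8.62 and 8.64 against 9.12 and 9.08. The means of nerve and of red blood cell markers were also lower in these 2 arrays than in the other 2. Smooth muscle markers did not split this way, at 8.59 and 8.38 against 8.83 and 8.49. Nor did fat-cell markers, at 8.89 and 10.16 against 9.05 and 9.19. The part of any of these cells in the Hk1 signal was not tested.

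Phosphofructokinase commits sugar to glycolysis and has muscle (Pfkm), liver (Pfkl) and platelet (Pfkp) isoforms. Pfkm had the narrowest range of the 28 probe sets, with all 13 log2 signals between 12.21 and 12.36. Pfkl had 7.16, 7.31 and 7.35 in SKM-KO, against 7.07, 7.19 and 7.03 in C. It had 7.12, 7.28, 7.58 and 6.96 in SKM-Tg, against 7.34, 8.08 and 7.05 in Wt. Wt 2 was the highest array for Pfkl and both pairs of groups overlapped. The differences were 0.18 in SKM-KO minus C (SE 0.22) and -0.26 in SKM-Tg minus Wt (SE 0.21), and the difference of effects was -0.44 (SE 0.30, limma adjusted p 0.989). Without Wt 2 the SKM-Tg minus Wt value of Pfkl was 0.04, so its sign rested on that array, and the difference of effects was -0.14, against -0.66 without Wt 3. Pfkp, the muscle aldolase Aldoa and the triose phosphate isomerase Tpi1 differed by 0.09, -0.00 and -0.04 in SKM-KO minus C, and by -0.04, -0.06 and -0.08 in SKM-Tg minus Wt.

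Lower glycolysis, from Gapdh to lactate dehydrogenase, had 7 genes tested. For all 7 the 95% interval stayed within 1.25-fold either way in both comparisons, with the widest bound at 1.24-fold in SKM-KO minus C and 1.25-fold in SKM-Tg minus Wt. The median log2 change was -0.06 in SKM-KO minus C, and in SKM-Tg minus Wt it was -0.09. All 7 were below 0 in SKM-Tg minus Wt, as were 62.2% of all genes. Wt 2 was the highest of the 13 arrays for Gapdh, Pgam2, Eno3, Pkm and Ldha. Gapdh, the enzyme that oxidises glyceraldehyde 3-phosphate and a common reference transcript, had log2 signals of 12.75, 12.78 and 12.77 in SKM-KO, against 12.80, 12.77 and 12.76 in C. It had 12.75, 12.77, 12.75 and 12.50 in SKM-Tg, against 12.81, 12.88 and 12.77 in Wt. SKM-Tg 4 was the lowest array, and all SKM-Tg values lay below all Wt values, as was so for 2.79% of all genes. The separation was slight, with SKM-Tg 2 at 12.7679 and Wt 3 at 12.7695. The difference was -0.13 (SE 0.09, limma adjusted p 0.702).

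The 3 control probe sets for Gapdh, spread over its transcript, were also lowest in SKM-Tg 4. In that array they had 12.69 for the 3′ end, 12.37 for the middle and 12.43 for the 5′ end. SKM-Tg and Wt overlapped in all 3, and for the middle SKM-Tg 3 had 12.56 and Wt 3 had 12.47. The SKM-Tg minus Wt values of the 3 were -0.07, -0.10 and -0.06. The 3′ minus 5′ difference of these control probe sets, a measure of RNA integrity, ran from 0.226 to 0.302 over the 13 arrays, and it was 0.263 in SKM-Tg 4. The same difference for beta actin was -0.1541 in SKM-Tg 4 and nearly the same, -0.1547, in C 1. These were the highest of 13, with a range from -0.311. The phosphoglycerate kinase Pgk1, the muscle mutase Pgam2, the muscle enolase Eno3 and the pyruvate kinase Pkm stood between -0.08 and -0.06 in SKM-KO minus C and between -0.09 and -0.04 in SKM-Tg minus Wt. Ldha, the lactate-forming subunit, differed by -0.05 and -0.09 in these comparisons. Ldhb, the subunit of heart and oxidative fibres, differed by 0.06 and -0.06. Among the 28 genes, 6 had a mean log2 signal over 12, and the highest signal of any probe set was 13.21. The 4 probe sets of Aldoa, with mean signals of 12.60, 12.43, 12.25 and 12.15, gave SKM-Tg minus Wt values of -0.06, -0.08, -0.12 and -0.14, the smallest at the brightest. In SKM-KO minus C the same 4 had -0.00, 0.01, -0.03 and 0.01, without that order. Other genes did not all share it in SKM-Tg minus Wt, as Tpi1 had -0.08 at a mean of 11.37 and -0.06 at 11.00. Whether narrow ranges and intervals of the brightest probe sets understate changes was not tested.

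**Figure D1:**
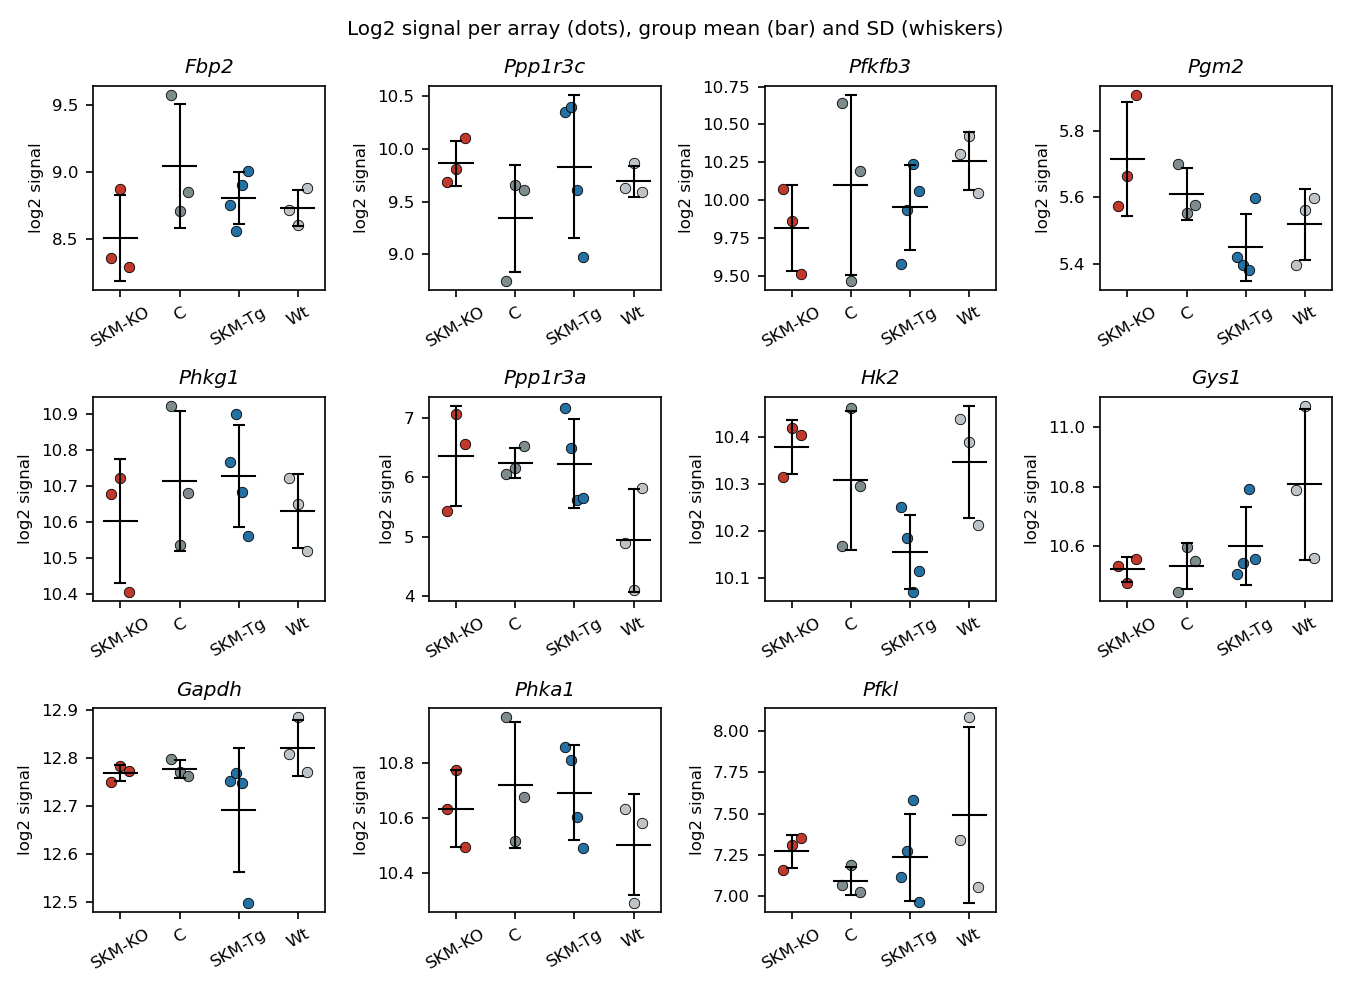
Log2 signal (vertical axis) of 11 of the genes described array by array, by group (horizontal axis, SKM-KO left of C and SKM-Tg left of Wt), with each array as a dot, the group mean as a bar and the SD as whiskers. Ppp1r3c in SKM-KO lies above every C array, and C 1 is the high Fbp2 dot at 9.58. The highest Gapdh dot of SKM-Tg lies just below the lowest of Wt.

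The branches were fructose bisphosphatase, glycerol phosphate dehydrogenase and the enzyme that makes fructose 2,6-bisphosphate. All 3 genes tested were below 0 in SKM-KO minus C, with a median log2 change of -0.29, where 46% of all genes were below 0. C 1 was the highest C array for all 3. In SKM-Tg minus Wt the median was -0.10. Fbp2, the muscle fructose bisphosphatase that runs this step backwards towards glycogen, had log2 signals of 8.36, 8.88 and 8.29 in SKM-KO, against 9.58, 8.71 and 8.85 in C. It had 8.76, 8.56, 8.90 and 9.01 in SKM-Tg, against 8.72, 8.61 and 8.88 in Wt. SKM-KO 1 and SKM-KO 3 were the lowest arrays and C 1 the highest, but SKM-KO 2 exceeded C 2 and C 3, so the groups overlapped. The difference was -0.54 in SKM-KO minus C, or 1.45-fold (SE 0.22, 95% interval -1.01 to -0.07, limma p 0.0283, adjusted p 1). Without C 1 it was -0.27, and the unadjusted p exceeded 0.05 without C 1, without SKM-KO 1 and without SKM-KO 3.

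Fbp2 differed in SKM-Tg minus Wt by 0.07 (SE 0.20), and the difference of effects was 0.61 (SE 0.30, limma p 0.0616, adjusted p 0.989), or 0.34 without C 1. The mean of 9 slow and oxidative fibre markers was 11.65, 11.63 and 12.00 in SKM-KO, against 11.03, 12.00 and 11.80 in C, so C 1 was the lowest there. Its Fbp2 was the highest of 13, as were its Pfkfb3, Phka1, Phkg1, Pgk1 and Phkb, and its Ppp1r3c was the lowest. The part of fibre type in these values was not tested. The 9 slow and oxidative markers were all above 0 in SKM-KO minus C, with a median of 0.17, where 46% of all genes were below 0. In the mean of these markers, C 2 and C 3 both exceeded the SKM-KO mean of 11.76, so this direction rested on C 1. In SKM-Tg minus Wt all 9 were below 0, with a median of -0.12, as were 62.2% of all genes. None of the 9 slow and oxidative markers had an unadjusted p under 0.05 in limma, nor did any of the 9 fast-fibre markers.

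Pfkfb3, a maker of fructose 2,6-bisphosphate, which activates phosphofructokinase, had 10.07, 9.86 and 9.51 in SKM-KO, against 10.64, 9.47 and 10.19 in C. It had 9.58, 9.93, 10.24 and 10.06 in SKM-Tg, against 10.30, 10.42 and 10.05 in Wt. C held both the highest and the lowest of the 13 values, and both pairs of groups overlapped. The differences were -0.29 in SKM-KO minus C (SE 0.26) and -0.31 in SKM-Tg minus Wt (SE 0.24), with limma adjusted p of 1 and 0.717. The first was -0.01 without C 1 and -0.60 without C 2, and the second was -0.18 without SKM-Tg 1. Gpd1, which links glycolysis to glycerol lipid synthesis and is abundant in fat, differed by -0.21 (SE 0.26) and -0.10 (SE 0.24). Its highest log2 signal was 11.32, in Wt 2. The mean of the 3 fat-cell markers tested, of 6 listed, ran from 8.89 to 10.16 in SKM-Tg, against 9.32 in Wt 2 and 8.20 and 7.76 in the other Wt arrays. The part of fat cells in this signal was not tested.

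Glycogen synthesis held the largest single difference in SKM-Tg minus Wt, that of Ppp1r3a. Its 7 genes had a median log2 change of 0.04 in SKM-KO minus C and of -0.00 in SKM-Tg minus Wt. Ppp1r3a, the muscle targeting subunit of protein phosphatase 1 for glycogen, had log2 signals of 5.44, 7.07 and 6.57 in SKM-KO, against 6.05, 6.15 and 6.52 in C. It had 7.16, 6.50, 5.61 and 5.65 in SKM-Tg, against 4.89, 4.10 and 5.82 in Wt. SKM-Tg 1 and SKM-Tg 2 were above all Wt arrays, SKM-Tg 3 and SKM-Tg 4 were below Wt 3, and Wt 1 and Wt 2 lay below the filter value of 4.904. The difference was 1.30 in SKM-Tg minus Wt (SE 0.47, 95% interval 0.28 to 2.31, limma p 0.0168, adjusted p 0.702). In SKM-KO minus C it was 0.12 (SE 0.50), and the difference of effects was 1.18 (SE 0.69, adjusted p 0.989).

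Ppp1r3a also had the widest range of the 28 genes, 3.07 log2 units over 13 arrays. Without Wt 2 its SKM-Tg minus Wt value was 0.88, and without Wt 3 it was 1.74. Wt arrays lay below all C arrays, with a difference of -1.30 in Wt minus C (SE 0.50, limma p 0.0227, adjusted p 0.15). That comparison shares the Wt arrays with SKM-Tg minus Wt, and the SKM-Tg mean of 6.23 was close to the C mean of 6.24. With array weights estimated gene by gene, a setting added after the data were seen because the default weights did not converge, Ppp1r3a passed in SKM-Tg minus Wt at 1.50 (limma adjusted p 0.0163), as did Hk2 and Gys1, together with 1487 genes in all. The default weights called 0 of the 28.

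Ppp1r3c, or protein targeting to glycogen, had log2 signals of 9.69, 9.81 and 10.10 in SKM-KO, against 8.75, 9.66 and 9.61 in C. It had 10.35, 10.39, 9.61 and 8.97 in SKM-Tg, against 9.62, 9.86 and 9.59 in Wt. Every SKM-KO array exceeded every C array, as was so for 4.66% of all genes although SKM-KO 1 and C 2 lay close together. No gene of the 28 lay wholly below C, as 2.83% of all genes did. The difference was 0.52 (SE 0.34, 95% interval -0.20 to 1.25, limma adjusted p 1), and without C 1 it was 0.23. The SKM-Tg minus Wt value was 0.14 (SE 0.31). Its second probe set past the filter gave 0.47 and 0.24 in these comparisons.

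Gys1, the muscle glycogen synthase, had 10.53, 10.47 and 10.56 in SKM-KO, against 10.45, 10.60 and 10.55 in C. It had 10.50, 10.54, 10.79 and 10.56 in SKM-Tg, against 10.79, 11.07 and 10.56 in Wt. Wt 2 was the highest array, and the groups overlapped. The differences were -0.01 in SKM-KO minus C (SE 0.13) and -0.21 in SKM-Tg minus Wt (SE 0.12, limma adjusted p 0.702). Without Wt 2 the SKM-Tg minus Wt value was -0.08. Pgm2, which acts mainly on pentose phosphates, had 5.57, 5.66 and 5.91 in SKM-KO, against 5.70, 5.55 and 5.58 in C, and 5.42, 5.40, 5.38 and 5.60 in SKM-Tg, against 5.40, 5.56 and 5.60 in Wt. These overlapping groups differed by 0.10 (SE 0.11) and -0.07 (SE 0.10). The phosphoglucomutase Pgm1, the UDP-glucose maker Ugp2 and the branching enzyme Gbe1 differed by -0.07, -0.06 and 0.04 in SKM-KO minus C, and by -0.08, -0.00 and 0.18 in SKM-Tg minus Wt.

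Glycogen breakdown was represented by the muscle phosphorylase Pygm and by 3 subunits of phosphorylase kinase, which activates it. All 4 were below 0 in SKM-KO minus C, with a median of -0.05, where 46% of all genes were below 0. C 1 was the highest C array for all 4. In SKM-Tg minus Wt the median was 0.04 with 2 on each side. Their intervals lay within 1.5-fold either way in both comparisons. Pygm differed by -0.01 (SE 0.09) and -0.10 (SE 0.09). Phka1, the muscle regulatory alpha subunit, had 10.63, 10.77 and 10.49 in SKM-KO, against 10.96, 10.52 and 10.68 in C, and 10.86, 10.81, 10.60 and 10.49 in SKM-Tg, against 10.63, 10.29 and 10.58 in Wt. SKM-Tg 1 and SKM-Tg 2 were above all Wt arrays and the other 2 were not, so the groups overlapped. The differences were -0.09 (SE 0.15) and 0.19 (SE 0.14, limma adjusted p 0.703), and the second was 0.08 without Wt 2.

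Phkg1, the catalytic gamma subunit of muscle, had 10.68, 10.72 and 10.41 in SKM-KO, against 10.92, 10.54 and 10.68 in C. It had 10.76, 10.90, 10.68 and 10.56 in SKM-Tg, against 10.72, 10.65 and 10.52 in Wt. The groups overlapped in both pairs, and the differences were -0.11 (SE 0.13) and 0.10 (SE 0.12), neither past limma's threshold. The beta subunit Phkb differed by -0.01 and -0.02. Without C 1, Phka1 stood at 0.04 and Phkg1 at -0.01 in SKM-KO minus C.

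**Figure D2:**
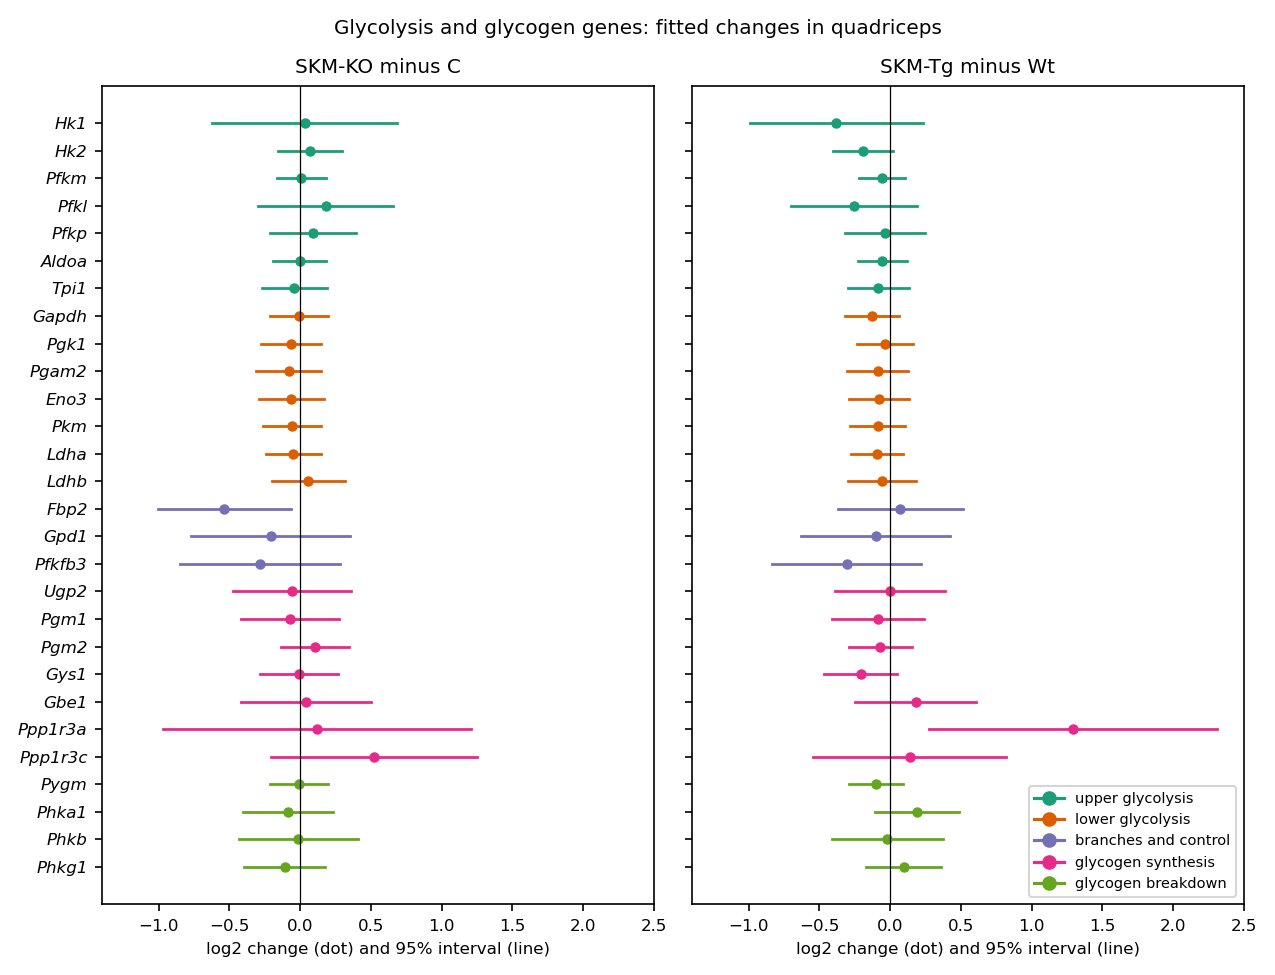
Fitted log2 change (horizontal axis, dot) and 95% interval (line) of the 28 genes tested, in SKM-KO minus C (left) and SKM-Tg minus Wt (right), coloured by role. Intervals of the 7 lower glycolysis genes are short and include 0 in both panels, while the intervals of Fbp2 on the left and of Ppp1r3a on the right exclude 0.

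Isoforms were also set out by class. Of the 12 muscle-type isoforms, 9 were below 0 in SKM-KO minus C and 8 in SKM-Tg minus Wt, with medians of -0.03 and -0.07. The 5 isoforms tested that predominate in other tissues were Hk1, Pfkl, Pfkp, Ldhb and Pfkfb3. Of these, 1 was below 0 in SKM-KO minus C, with a median of 0.06, and all 5 in SKM-Tg minus Wt, with a median of -0.26. Over all genes, 46% and 62.2% were below 0 in these comparisons. Wt 2 was the highest of all arrays for Hk1 and Pfkl, and without it Pfkl was 0.04 in SKM-Tg minus Wt. The within-array difference Hk2 minus Hk1 was 3.44, 3.44, 2.27 and 2.44 in SKM-Tg, against 2.92, 2.36 and 2.86 in Wt, so that SKM-Tg 1 and SKM-Tg 2 lay above the Wt arrays and SKM-Tg 3 below them. Ldha minus Ldhb was 0.11, 0.23 and -0.05 in SKM-KO, against 0.45, -0.01 and 0.17 in C, and these groups overlapped. Only differences between arrays are read from these values, because signals of unlike probe sets share no scale.

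The spread between single arrays was wide for some genes. Over the 13 arrays, 12 genes had a range under 0.5 log2 units and 9 had a range of 1 or more. The 9 were Pfkl, Ugp2, Pfkfb3, Gbe1, Fbp2, Hk1, Gpd1, Ppp1r3c and Ppp1r3a. Wt 2 held an extreme value for 18 of 28 genes, SKM-KO 3 for 10 and C 1 for 8. SKM-KO 3 held the lowest value of 8 genes, among them Fbp2, Eno3, Pkm and Ldha.

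**Figure D3:**
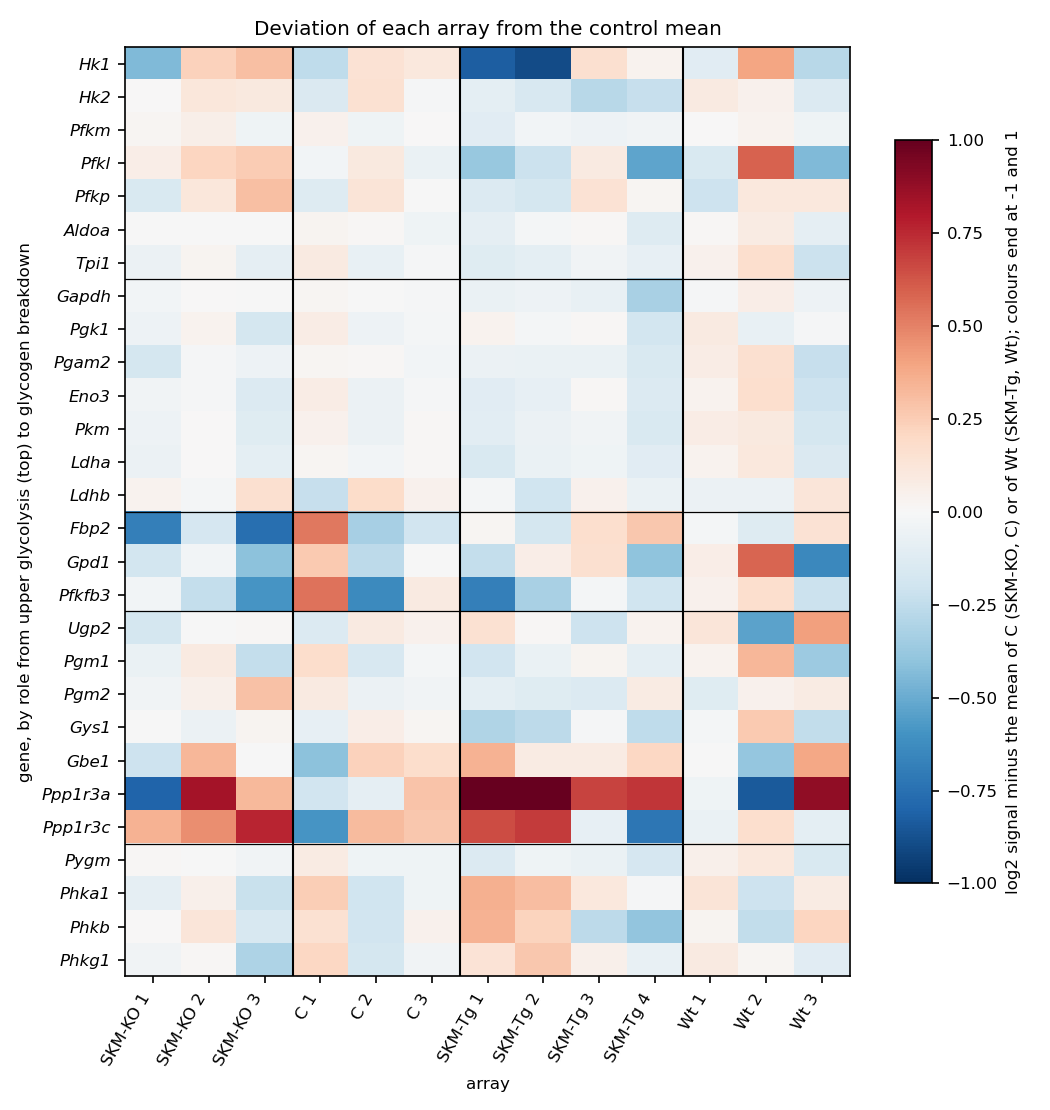
Log2 signal of each array minus the mean of its control group (colour, from -1 in blue to 1 in red), with arrays along the horizontal axis and the 28 genes down the vertical axis by role. Columns of 1 group differ among themselves: C 1, Wt 2 and the first and second SKM-Tg arrays stand out. The Ppp1r3a row is red in all 4 SKM-Tg arrays and also in Wt 3.

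The 2 control groups also differed from each other. In Wt minus C limma called 0 of 28 genes (0.00961% of all genes), and 4 had an unadjusted p under 0.05, where the share over all genes was 27.8%. These were Ppp1r3a, Gbe1 at -0.51 (SE 0.21), Ugp2 at -0.50 (SE 0.19) and Gys1 at 0.28 (SE 0.13). Wt arrays lay below all C arrays for Ppp1r3a and Pgk1 (8.51% of all genes). Of the 28, 11 were below 0 (41.2% of all genes) and 11 differed by over 0.2 in absolute size (54.7%), and their median was 0.044, where all genes had 0.062. Without Wt 3, 7 of the 28 were called and 4119 genes in all. The C arrays enter this comparison and that of SKM-KO with C.

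Of 61 further genes of these pathways, 43 were tested and limma called 0 in each comparison. For SKM-KO minus C the smallest p-values belonged to Pygl, Stbd1 and Mlxip. Pygl, the liver phosphorylase, differed by 0.49 (SE 0.23), Stbd1, a glycogen-binding protein, by -0.49 (SE 0.25) and Mlxip by 0.17 (SE 0.09). Of the 43, 1 was higher and 4 were lower in SKM-Tg minus Wt at an unadjusted p under 0.05, where the shares over all genes were 1.50% and 5.39%. Tigar, a phosphatase that lowers fructose 2,6-bisphosphate, had 8.71, 8.57, 8.83 and 8.98 in SKM-Tg, against 9.35, 9.30 and 9.31 in Wt. All SKM-Tg arrays lay below all Wt arrays, as was so for 3 of the 43 genes and for 2.79% of all genes. Wholly above Wt lay 1 of the 43, beside 123 of all 10411 genes. Tigar differed by -0.55 (SE 0.12, limma adjusted p 0.527). Slc16a1, a lactate and pyruvate transporter, had 8.003, 8.07, 8.29 and 8.50 in SKM-Tg, against 8.91, 8.54 and 8.72 in Wt. These groups did not overlap either, and they differed by -0.50 (SE 0.14, adjusted p 0.649). Nhlrc1, a ubiquitin ligase of glycogen homeostasis, differed by -0.48 (SE 0.15).

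In the difference of effects the smallest p-values of these further genes were those of Slc16a1 at -0.73 (SE 0.20), Gpd2 at 0.65 (SE 0.26) and Tigar at -0.43 (SE 0.18), all with a limma adjusted p of 0.989. Gpd2 is the mitochondrial partner of Gpd1 in the glycerol phosphate shuttle. In Wt minus C, 15 were higher and 4 lower at an unadjusted p under 0.05, where the shares over all genes were 16.2% and 11.6%. They were led by Mlxip at 0.49 (SE 0.09), the lysosomal glucosidase Gaa at 0.63 (SE 0.16) and Vhl at 0.56 (SE 0.15).

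**Figure D4:**
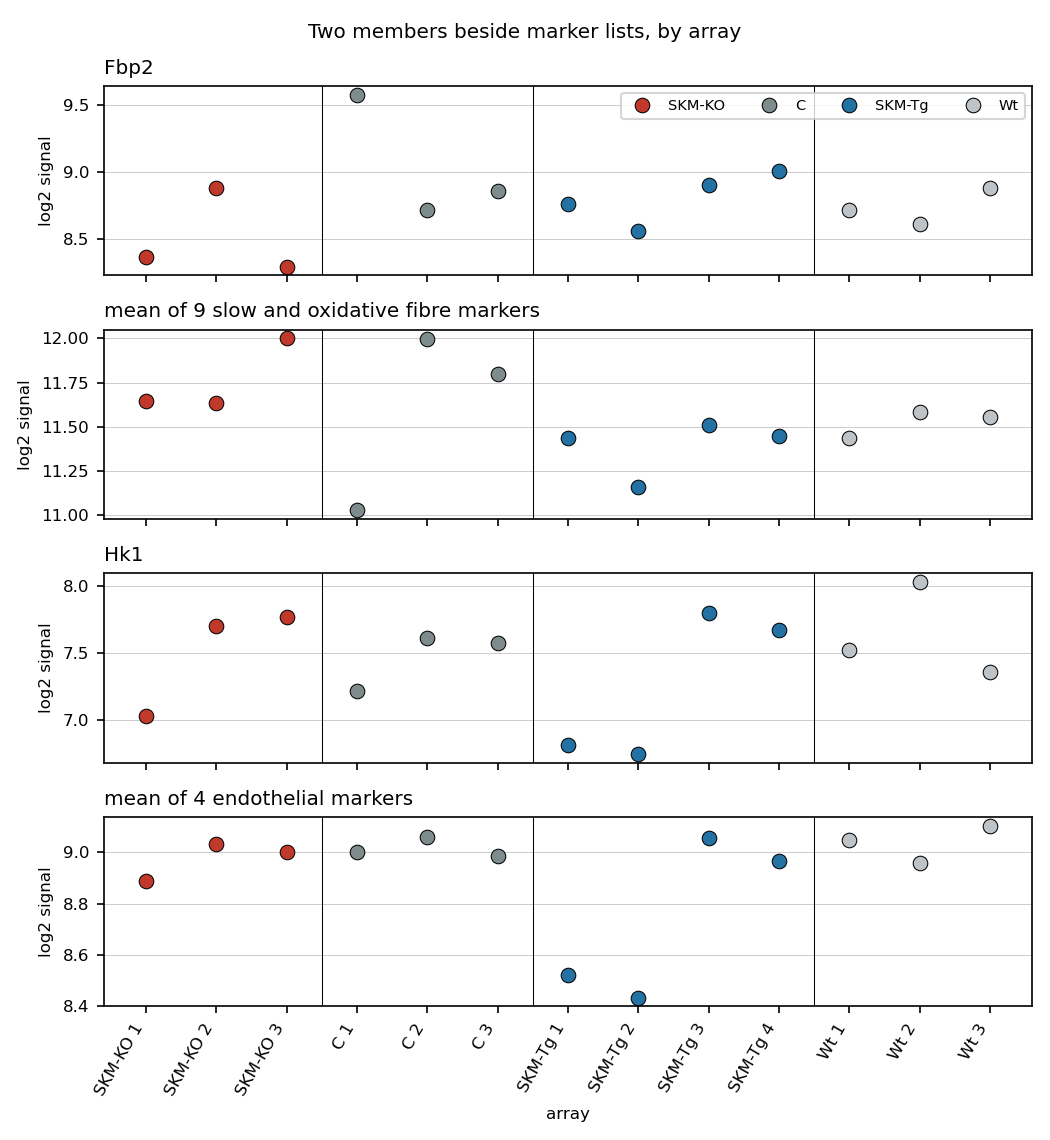
Log2 signal by array (horizontal axis) of Fbp2, of the mean of 9 slow and oxidative fibre markers, of Hk1 and of the mean of 4 endothelial markers, with SKM-KO left of C and SKM-Tg left of Wt. C 1 is the highest array for Fbp2 and the lowest for the fibre markers, and SKM-Tg 1 and SKM-Tg 2 are the lowest for both Hk1 and the endothelial markers.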

How the data were processed

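Quadriceps RNA of 13 mice was hybridised to Affymetrix mouse arrays, 1 array per animal. The deposited values are log2 signals made by the authors with RMA, per the submitters' processing notes, which give no version; RMA subtracts background and combines the probes of a set after quantile normalization, a step that can hide shifts shared by most genes. Arrays have no read depth, and the number of arrays limits the precision. Probe sets without exactly 1 symbol in the annotation (551 with several, 15588 unnamed) and 104 controls were left out. Each gene took its brightest probe set, and 10411 genes with a mean of at least 4.904, the median of the probe set means, were tested.

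A single model with a mean for each of the 4 groups was fitted to all arrays (limma 3.58.1, R 4.3.3, 9 residual and 3.62 prior degrees of freedom), two-sided, with Benjamini-Hochberg adjustment over all genes tested and a threshold of 0.05. The fit was tested on simulated data. Intervals are 95%, and errors are SE of the fit. Values in every array are given for the 5 metabolic genes with the smallest p in each of the 3 comparisons SKM-KO with C, SKM-Tg with Wt and the difference of effects, and for Gapdh; those of Hk1 were added after its values were seen. Of the further pathway genes, 3 per comparison are named by p. The genes, the marker lists and the alternatives were chosen with earlier results of these data known. Alternatives were median centring, quantile normalization, the filter, averaging of probe sets within a gene, trended robust moderation, fitting only the groups compared, array weights and leaving out each array. No batch, scan date or pairing is given in the labels, so no batch term was possible.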

Additional observations from a re-analysis of the deposited data

Results flagged for a closer look

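In SKM-Tg, the 1 group of 4 arrays, each of the 28 genes was examined for an array far from the others, by the gap to its nearest neighbour divided by the group's range. This ratio passed Dixon's critical value for 4 values in 2 genes, both through SKM-Tg 4. For Gapdh the ratio was 0.924, with SKM-Tg 4 at a log2 signal of 12.50 beside 12.75, 12.77 and 12.75 in the other 3. For Pgam2, the muscle phosphoglycerate mutase, it was 0.873, with SKM-Tg 4 at 11.61 beside 11.71, 11.70 and 11.70. Chance gives such a ratio in about 1 of 20 groups. Without SKM-Tg 4, Gapdh differed by -0.07 in SKM-Tg minus Wt, against -0.13 with it.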

How the results depend on the processing

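No gene of the 28 passed in SKM-KO minus C or in the difference of effects under any alternative or with any array left out. In SKM-Tg minus Wt and Wt minus C the count stayed at 0 except where stated. The planned array weights, by limma's default, did not converge and gave Wt 1 a weight of 2.16e-06. They called 0 of 28 in each comparison, and at an unadjusted p under 0.05 they gave 0 in SKM-Tg minus Wt and 0 in Wt minus C. Gene-by-gene weights were then added after seeing the data. They gave Wt 1 a weight of 7.23 Wt 2 one of 0.147 and Wt 3 one of 0.230, and called 3 in SKM-Tg minus Wt (Ppp1r3a, Hk2 and Gys1, of 1487 genes) and 14 in Wt minus C (of 5787 genes). The unadjusted counts were then 6 in SKM-Tg minus Wt, 4 in the difference of effects and 17 in Wt minus C. The 2 kinds of weights thus disagree about Wt 1.

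Counts at an unadjusted p under 0.05 moved as follows. For SKM-KO minus C the count was 0 when only the groups compared were fitted, and 0 to 2 with single arrays left out (0 without C 1, SKM-KO 1 or SKM-KO 3, 2 without C 2). For SKM-Tg minus Wt it was 0 with the filter at the 75th percentile, 3 with trended robust moderation, and 0 to 5 with single arrays left out (0 without Wt 2 or SKM-Tg 1, 5 without Wt 3). For the difference of effects it was 1 after quantile normalization and 0 to 3 with single arrays left out (3 without Wt 3). In Wt minus C it was 2 with the stricter filter, 1 with only the groups compared, and 0 to 9 with single arrays left out, where 0 to 7 were called (7 without Wt 3). Fitting only the groups compared leaves the difference of effects as it is.

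The sign turned for some differences not called above, and the cause was not tested. Gapdh in SKM-KO minus C was 0.0059 after quantile normalization, 0.0065 with default and 0.0056 with gene-by-gene weights. Fbp2 in SKM-Tg minus Wt was -0.068 with default and -0.0043 with gene-by-gene weights, and Pgm2 was 0.029 with the second kind. In the difference of effects, Pfkfb3 was 0.028 after quantile normalization and 0.029 with default weights, and Ppp1r3c was 0.034 with gene-by-gene weights. In Wt minus C, Hk2 was -0.045 with default weights and Phkg1 was 0.043 with gene-by-gene weights. Of the 44 values of 11 named genes over 4 comparisons, 39 turned or moved by over 1.5 times with 1 array left out. With single arrays left out, Gapdh ran from -0.014 to 0.0038, Phka1 from -0.19 to 0.037, Gys1 from -0.053 to 0.023 and Ppp1r3a from -0.24 to 0.58 in SKM-KO minus C. Ppp1r3c ran from -0.050 to 0.42 and Pfkl from -0.48 to 0.037 in SKM-Tg minus Wt. Pfkfb3 ran from -0.29 to 0.30 in the difference of effects and from -0.16 to 0.43 in Wt minus C, where Hk2 ran from -0.032 to 0.12 and Phkg1 from -0.17 to 0.023. No paired analysis was possible because the labels carry no replicate numbers shared between groups.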

Other observations

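Transcripts typical of liver had larger differences between SKM-KO and C than the metabolic genes. The 3 liver markers tested, Alb, Apoa1 and Ttr, had a median log2 change of -1.03 in SKM-KO minus C, all 3 with an unadjusted p under 0.05 in limma and with no overlap of the groups, and none passed adjustment. Over all genes, 0.288% were lower at that p and 2.83% were lower with no overlap. The mean of the 3 was 5.37, 4.97 and 4.89 in SKM-KO, against 6.38, 7.41 and 5.46 in C, where C 2 was high. Pygl, the liver phosphorylase named above, was on the other side, at 0.49.

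The remaining marker lists gave no call in any comparison. In SKM-KO minus C, 0 of the 5 macrophage, 4 fibroblast, 4 endothelial, 2 smooth muscle, 2 nerve and 2 red blood cell markers tested had an unadjusted p under 0.05 in limma. In SKM-Tg minus Wt, 1 macrophage, 1 endothelial and 1 smooth muscle marker were lower at that level (5.39% of all genes), and 0 of the 4 fibroblast, 3 fat-cell, 2 nerve, 2 red blood cell and 3 liver markers had such a p. The nerve and Schwann cell mean was 6.77, 6.40 and 6.09 in SKM-KO, against 6.07, 6.10 and 5.99 in C.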
